A study of Mus musculus with 25 samples.

Results

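The genes described here are 31 of the 24537 in the count table, chosen by symbol for their part in bile acid synthesis, bile acid transport, and signalling through the bile acid receptor FXR and the FGF receptor of hepatocytes. All 31 were in the table, and 30 had enough reads to be tested. The measurements were RNA-seq read counts of poly(A) RNA from whole flash-frozen liver of male C57BL6/J mice aged 24 months. Mice labelled p53KO, a knockout of the tumour suppressor p53 (gene Trp53), were compared with mice labelled Rosa26KO, Rosa26 being a locus often targeted as a control. Each genotype was fed a control diet or a high fat diet (HFD), which gave Control_Rosa26KO (n = 6 libraries), HFD_Rosa26KO (n = 6), Control_p53KO (n = 6) and HFD_p53KO (n = 7). All mice therefore carried a knockout label, and all were old. The labels state neither how the knockouts were made, in which cells they acted, what the diets contained, nor how long they were fed. The labels do not say that libraries of a group came from separate animals, so p-values measure the spread between these libraries.

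Bile acids are made from cholesterol in hepatocytes, either by a classic route that starts with 7-alpha-hydroxylation of cholesterol or by an alternative route that starts on the side chain, and they are then conjugated to taurine or glycine. Conjugated bile acids are pumped across the canalicular membrane into bile, reabsorbed in the ileum, and taken back up from portal blood across the basolateral membrane of the hepatocyte. Bile acids activate FXR, a nuclear receptor that induces the repressor SHP and the export pump BSEP in liver and the hormone FGF15 in ileum, and FGF15 acts on the hepatocyte receptor made of FGFR4 and beta-Klotho to lower bile acid synthesis.

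Libraries held 16324283 to 21501281 counts. Trp53 itself was measured at 36.8 ± 4.80 CPM (counts scaled to a common library total, mean ± SD) in Control_Rosa26KO and 37.1 ± 4.56 in HFD_Rosa26KO. It was 24.1 ± 6.89 in Control_p53KO and 26.0 ± 4.47 in HFD_p53KO, so that the p53KO means were lower but not at 0. Single libraries ran from 30.6 to 43.8 CPM in Rosa26KO and from 17.2 to 35.6 CPM in p53KO, and the labels do not say which part of the gene was altered. Hepatocyte markers were abundant in every library and no listed marker was at 0 in all libraries of a group. Library numbers ran from 1941 to 1965 in runs of 8, 8 and 9, and each run held all 4 groups. Control_p53KO 1, Control_p53KO 3 and HFD_Rosa26KO 6 stood apart in neutrophil markers, and Control_p53KO 1, Control_Rosa26KO 1, HFD_p53KO 2 and HFD_p53KO 7 in acute phase genes. Where the diet call of a bile acid gene, or of a gene named from a longer pathway list, changed without either set, both values are given. Control_p53KO 3 was also the highest of all libraries in Kupffer cell and lymphocyte markers.

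The 30 tested genes spanned a wide range of abundance. Per kilobase of exon, and averaged over all 25 libraries, Scp2, which encodes the sterol carrier protein and its thiolase form, was the highest at 891 CPM per kb. It was followed by the bile acid CoA ligase gene Slc27a5 (315), the sodium-dependent uptake transporter gene Slc10a1, which encodes NTCP (225), and the sterol 27-hydroxylase gene Cyp27a1 (182). The gene of the rate-limiting enzyme of the classic route, Cyp7a1, stood far lower at 17.7 CPM per kb, below Cyp8b1 (133), which directs synthesis toward cholic acid. At the bottom were Abcc4, a basolateral efflux pump gene (1.29 CPM per kb), and Slc51b, the beta subunit of the organic solute transporter (0.977). Its partner subunit gene Slc51a was the 1 gene that could not be tested: 1 read was counted in each of Control_Rosa26KO 5 and HFD_p53KO 1 and none in the other 23 libraries.

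**Figure D1:**
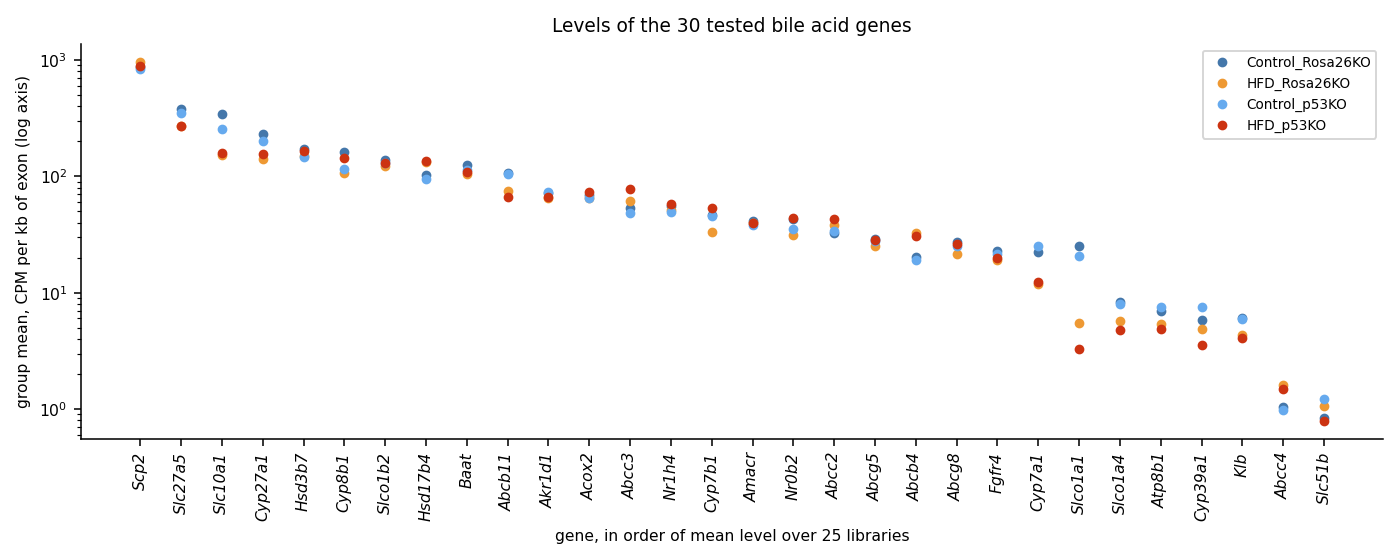
Group mean level (CPM per kb of exon, log axis) of each of the 30 tested genes, in order of the mean over 25 libraries, with 1 point per group. Scp2 is highest at 891 CPM per kb and Slc51b lowest at 0.977, and Slco1a1 has the widest gap between its control diet and HFD points.

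The spread between libraries of 1 group was wide for many of these genes. The median SD of log2 CPM within groups was 0.44 over the 30 genes, against 0.27 over all 14133 genes tested. Slco1a1, which encodes the organic anion transporter OATP1A1, had an SD of 2.30 and varied more within groups than 99.9% of tested genes. Cyp8b1 (0.95), Slc51b (0.92) and Abcc4 (0.87) came next. The peroxisomal side-chain oxidase gene Acox2 (0.24), the FGF receptor gene Fgfr4 (0.25) and the racemase gene Amacr were the steadiest of the 30. The spread sets what could be seen: a difference in Slco1a1 had to be far larger than one in Acox2 to pass the same test.

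The question of what HFD did to these genes was addressed with the average of the diet effects in both genotypes, from 1 fit of all 25 libraries (edgeR quasi-likelihood test, Benjamini-Hochberg adjustment over all tested genes, threshold 0.05). On HFD, Abcb4, the canalicular phospholipid floppase gene, and Hsd17b4, a peroxisomal side-chain enzyme gene, rose. Cyp7a1, Cyp27a1, Slc10a1, the canalicular bile salt pump gene Abcb11 and the canalicular flippase gene Atp8b1 fell. That was 7 of 30 genes (23.3%), while 9.71% of all tested genes passed. The 2 that rose made up 6.67% of the 30 (background 4.64%), and the 5 that fell made up 16.7% (background 5.07%). In total 22 of the 30 had a log2 fold change below 0, with a median of -0.14, against -0.01 over all tested genes. Without the 3 libraries high in neutrophil markers 12 of 30 passed (40%, against 17.6% of all genes), the same 7 among them. With the library run as a term 10 of 30 passed (33.3%, against 12.7%), the same 7 with Slco1a1, Slc27a5 and Klb. With library numbers 1949 to 1965 alone 4 passed (13.3%, against 4.21%), namely Abcb4, Atp8b1, Abcb11 and Slc10a1.

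Hepatocyte genes outside bile acid metabolism moved in the same comparison. Of the 9 tested hepatocyte markers 5 fell on HFD and none rose, among them the albumin gene Alb (-0.63) and the urea cycle gene Cps1 (-0.89 on the log2 scale). The markers Apob (-0.09), Asgr1 (-0.09), Hnf4a (-0.11) and Ttr (-0.27) did not pass. The summed level of the hepatocyte markers had a median of 137097 CPM in Control_Rosa26KO and 84273 in HFD_Rosa26KO. In p53KO it was 130121 on control diet and 67369 on HFD. Of the 9 tested cholangiocyte markers none passed the test, and neither did any neutrophil, Kupffer cell or lymphocyte marker, while 1 endothelial (Clec4g) and 1 stellate cell marker (Reln) fell. The part of these shifts in the bile acid genes was not tested. Whether the number of hepatocytes, the RNA per hepatocyte or the level of single genes changed was not tested.

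**Figure D2:**
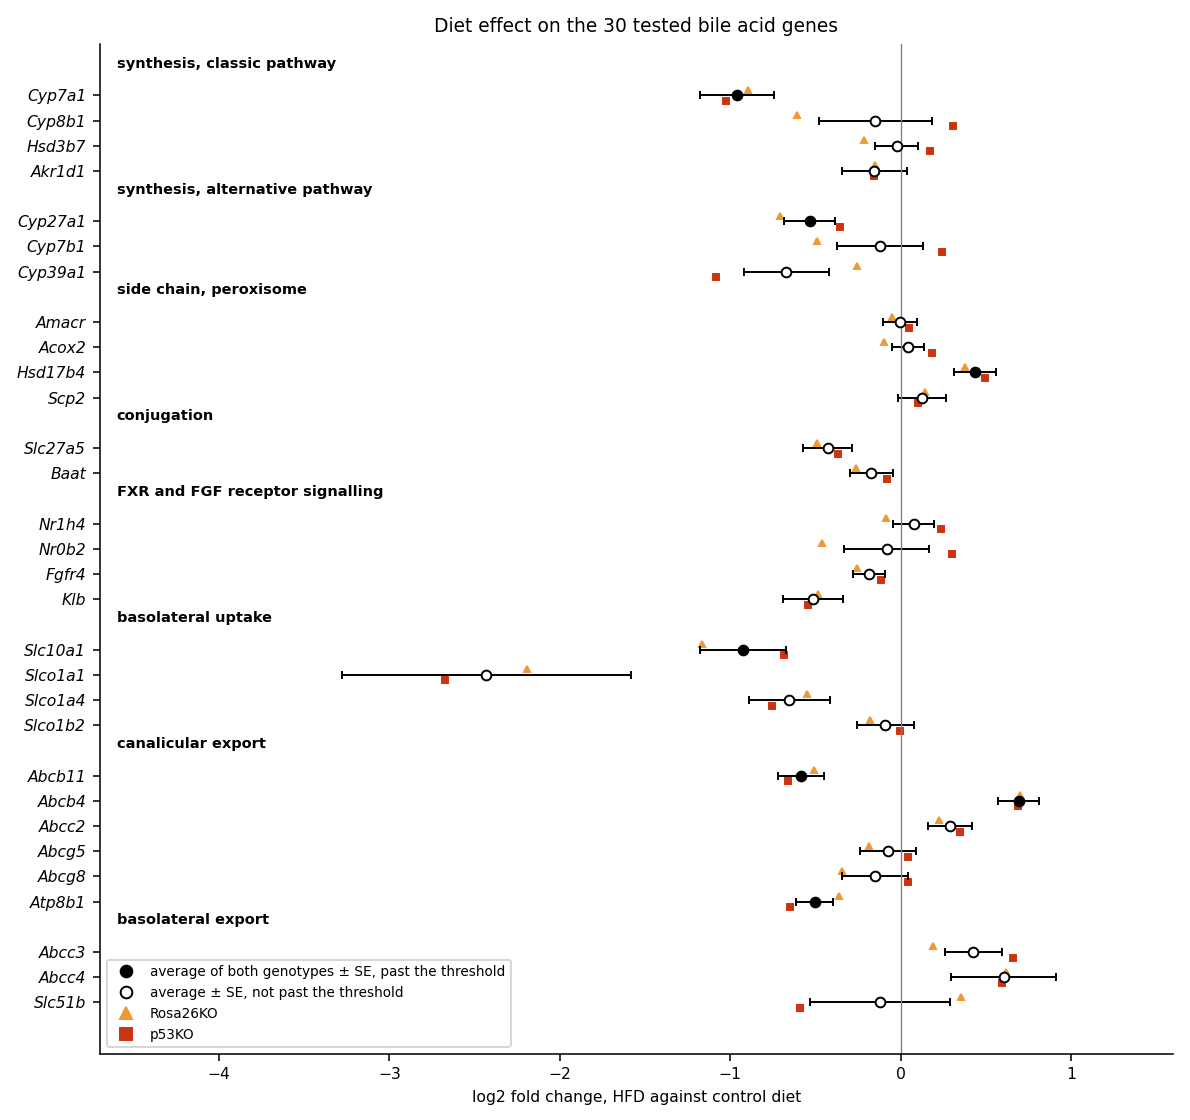
Log2 fold change of HFD against control diet for the 30 tested genes, grouped by role: circles are the average of both genotypes with its standard error (filled where past the threshold), triangles Rosa26KO and squares p53KO without error bars. Abcb4 (0.69) and Hsd17b4 (0.44) are the filled circles to the right of 0 and Cyp7a1 (-0.96) the one farthest to the left, while Slco1a1 lies farther left with a wide error bar.

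Among the enzymes of the classic route, Cyp7a1 (chr4:6265612-6275633, minus strand, GRCm38), the rate-limiting cholesterol 7-alpha-hydroxylase gene, stood at 48.0 to 159 CPM (median 84.3) in Control_Rosa26KO and 45.2 to 54.6 CPM (median 50) in HFD_Rosa26KO. The p53KO libraries spanned 47.5 to 149 CPM (median 115) on control diet and 30.3 to 89.4 CPM (median 40.7) on HFD. The HFD_Rosa26KO libraries lay close together at the foot of the control range, and the groups overlapped in both genotypes because Control_Rosa26KO 2, Control_p53KO 5 and Control_p53KO 6 were also low and HFD_p53KO 5 and HFD_p53KO 7 were high. On average Cyp7a1 fell by 0.96 on the log2 scale (SE 0.22, edgeR adjusted p = 0.00648), which is to say it fell by 48.6%. Within the runs of library numbers the difference between diets, averaged over both genotypes, was -1.13, -1.46 and -0.23, smallest in the run 1957 to 1965. By genotype it was -0.20, -1.35 and -0.84 in Rosa26KO and -2.06, -1.57 and 0.38 in p53KO. When only libraries numbered 1949 to 1965 were used the call was lost (log2 fold change -0.84, edgeR adjusted p = 0.066).

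Cyp8b1, the sterol 12-alpha-hydroxylase gene that sets the share of cholic acid, did not pass. Its group means were 317 ± 179.6 CPM, 208 ± 57.7 CPM, 227 ± 157 CPM and 282 ± 125 CPM in Control_Rosa26KO, HFD_Rosa26KO, Control_p53KO and HFD_p53KO. Single libraries ran from 42.7 to 523 CPM and the 4 groups overlapped. The average diet effect was -0.15 ± 0.33 (log2 ± SE, edgeR adjusted p = 0.832), with a 95% interval of -0.79 to 0.50. Hsd3b7, which oxidises the sterol ring (276 to 490.1 CPM in Control_p53KO to 313 to 629 in HFD_p53KO), and the ring reductase gene Akr1d1 (group means 188 to 212 CPM) did not pass the test in any comparison. Exons of Gm49388, on the same strand, and of 9430064I24Rik, on the other, overlap Hsd3b7. Of the 4 genes of the classic route, then, 1 fell and 3 did not pass.

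The alternative route starts with Cyp27a1 (chr1:74713574-74737892, plus strand), a mitochondrial side-chain hydroxylase gene. It was measured at 376 to 656 CPM (median 488) in Control_Rosa26KO and at 270.1 to 346 CPM (median 308) in HFD_Rosa26KO, ranges that did not overlap. The p53KO groups, at 294 to 564 CPM (median 437) on control diet and 196 to 638 CPM (median 334) on HFD, did overlap, and HFD_p53KO 7 was the highest HFD library. The average effect was -0.53 ± 0.15 (edgeR adjusted p = 0.0249). Averaged over both genotypes, the differences within runs of library numbers were -0.73, -0.56 and -0.51. They were -0.42, -0.73 and -0.93 in Rosa26KO and -1.05, -0.39 and -0.10 in p53KO. Without the libraries 1941 to 1948 the value was -0.50 and the call was lost (edgeR adjusted p = 0.120). Cyp7b1, the oxysterol 7-alpha-hydroxylase gene of this route, had group means of 101 ± 32.8 CPM, 71.9 ± 29.0 CPM, 98.3 ± 32.2 CPM and 116 ± 88.5 CPM in the same group order and a diet effect of -0.12 ± 0.25 (edgeR adjusted p = 0.814). Limma voom called Cyp7b1 on the average of both genotypes (adjusted p = 0.0151). Cyp39a1, a 24-hydroxycholesterol 7-alpha-hydroxylase gene, was low (10.8 to 22.9 CPM by group mean) and did not pass. Its average effect was -0.67 ± 0.25 (edgeR adjusted p = 0.0913), and it passed without Control_Rosa26KO 1 (-0.77, 0.0336) or HFD_p53KO 5 (-0.79, 0.0364). In p53KO alone it was at -1.08 ± 0.35 (edgeR adjusted p = 0.0822) and passed with the library run as a term (-1.22, 0.0447) or without HFD_p53KO 5 (-1.33, 0.0346). DESeq2 called Cyp39a1 in p53KO, and limma voom called it in p53KO and on the average.

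Of the 4 genes that shorten the side chain in peroxisomes, only Hsd17b4 passed the test between diets. Its product, the D-bifunctional protein, also takes part in peroxisomal oxidation of other fatty acids. Control_Rosa26KO libraries gave 253 to 429 CPM (median 345) and HFD_Rosa26KO libraries 275 to 591 CPM (median 453). In p53KO the values were 236 to 479 CPM (median 303) on control diet and 370.2 to 538 CPM (median 456) on HFD. Most HFD libraries were above most control libraries, with overlap in both genotypes, and HFD_Rosa26KO 6 was the low HFD library. Averaged over both genotypes, the differences within runs of library numbers were 0.58, 0.43 and 0.32. They were 0.64, 0.46 and 0.0004 in Rosa26KO and 0.52, 0.40 and 0.64 in p53KO. The average effect was 0.44 ± 0.12 (edgeR adjusted p = 0.0259), a rise of 35.5%. This call was the closest to the threshold of the 7: it was lost without the 4 libraries high in acute phase genes (0.39, edgeR adjusted p = 0.057), without libraries 1941 to 1948 (0.37, 0.217), and without any 1 of Control_Rosa26KO 1, Control_Rosa26KO 6 or Control_p53KO 6.

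The other 5 genes of the side-chain and conjugation steps did not pass the test between diets in the fit of all 25 libraries, but the calls of Slc27a5 and Baat changed with the setting. Amacr, which interconverts side-chain stereoisomers, had group means of 99.4 to 108 CPM, and Acox2 of 240.1 to 273 CPM. Scp2 ranged from 2891 to 3354 CPM. Slc27a5, which activates bile acids to CoA esters, had means of 927 ± 159 CPM, 660.3 ± 116 CPM, 845 ± 211 CPM and 656 ± 221 CPM in Control_Rosa26KO, HFD_Rosa26KO, Control_p53KO and HFD_p53KO, and Baat, which joins them to taurine or glycine, had 241 ± 51.1 CPM, 202 ± 25.9 CPM, 222 ± 57.3 CPM and 209.8 ± 50.9 CPM. The average effect on Slc27a5 was -0.43 ± 0.14 (edgeR adjusted p = 0.0632). It passed by edgeR with the library run as a term (-0.45, adjusted p = 0.0367), without the 3 libraries high in neutrophil markers (-0.52, 0.0177), and without Control_Rosa26KO 2 (-0.47, 0.0328), Control_p53KO 3 (-0.49, 0.0179) or HFD_p53KO 7 (-0.50, 0.0145). DESeq2 (-0.43, adjusted p = 0.0328) and limma voom (-0.60, 0.000255) called it as well. Baat was called by limma voom on the average of both genotypes.

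Signalling genes did not pass in any comparison in the fit of all 25 libraries, and the diet call of Klb changed with the setting. Nr1h4, which encodes FXR, had group means of 113 to 133 CPM and an average diet effect of 0.08 ± 0.12 (edgeR adjusted p = 0.750, 95% interval -0.16 to 0.31). Nr0b2, the SHP gene and an FXR target, was measured at 24.9 to 81.6 CPM (median 47.5) in Control_Rosa26KO and 21.5 to 48.1 CPM (median 36.8) in HFD_Rosa26KO. The p53KO values were 18.7 to 69.9 CPM (median 34.5) on control diet and 28.6 to 74.2 CPM (median 41.9) on HFD. High and low libraries were present in all 4 groups, and the diet effect of -0.08 ± 0.25 left an interval of -0.57 to 0.41 (edgeR adjusted p = 0.883). The receptor gene Fgfr4 had group means of 67.5 to 80.6 CPM and an average diet effect of -0.19 ± 0.10 (edgeR adjusted p = 0.234), which limma voom called (-0.31, adjusted p = 0.00684). Klb, the gene of its co-receptor beta-Klotho, had means of 27.4 ± 10.5 CPM, 19.6 ± 3.14 CPM, 27.0 ± 11 CPM and 18.5 ± 4.80 CPM in the same order of groups as above. Its average effect was -0.51 ± 0.17 (edgeR adjusted p = 0.0641). Klb passed by edgeR with the library run as a term (-0.50, adjusted p = 0.0432), without the 3 libraries high in neutrophil markers (-0.62, 0.0193), and without Control_Rosa26KO 2 (-0.58, 0.0192), Control_p53KO 1 (-0.57, 0.0382), Control_p53KO 3 (-0.57, 0.0319) or HFD_p53KO 5 (-0.57, 0.0352). DESeq2 (-0.52, adjusted p = 0.0375) and limma voom (-0.57, 0.00257) called it too.

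Uptake from blood is shared by NTCP, the Slc10a1 product, and by the organic anion transporters of the Slco genes, and all 4 uptake genes had log2 fold changes below 0 on HFD. Slc10a1 (chr12:80953183-80968705, minus strand) gave 322 to 1315 CPM (median 781) in Control_Rosa26KO and 265 to 400.4 CPM (median 339) in HFD_Rosa26KO. The p53KO libraries gave 229 to 859 CPM (median 577) on control diet and 171 to 613 CPM (median 303) on HFD. Control libraries were split between high and low values, and the lowest ones lay within the HFD range of their genotype. The average effect was -0.92 ± 0.25 (edgeR adjusted p = 0.0214), so that Slc10a1 fell by 47.3%. Averaged over both genotypes, the differences within runs of library numbers were -0.78, -1.01 and -0.87. In Rosa26KO they were -0.15, -1.36 and -1.57, and in p53KO -1.41, -0.65 and -0.16.

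Slco1a1 had the log2 fold change farthest from 0 of the 30 and the largest spread, and is described at length after its values were seen. In Control_Rosa26KO it was measured at 7.44 to 253 CPM (median 126) and in HFD_Rosa26KO at 1.42 to 134 CPM (median 3.05). The p53KO values were 2.66 to 318 CPM (median 83.3) on control diet and 2.03 to 81.5 CPM (median 3.18) on HFD. Levels under 5 CPM, a bound set after the values were seen, were found in 4 of 6 HFD_Rosa26KO and 5 of 7 HFD_p53KO libraries, against 0 of 6 Control_Rosa26KO and 1 of 6 Control_p53KO libraries, yet HFD_Rosa26KO 6 and HFD_p53KO 7 were at 134 and 81.5 CPM. The average effect of -2.43 ± 0.85 did not pass the threshold (edgeR adjusted p = 0.0718). With the library run as a term it passed (-3.18, edgeR adjusted p = 0.0122). It also passed by edgeR without HFD_Rosa26KO 6 (-3.36, adjusted p = 0.0127), HFD_p53KO 7 (-3.13, 0.0149) or Control_p53KO 1 (-2.56, 0.0480), without the 4 libraries high in acute phase genes (-3.30, 0.0135) and without the 3 high in neutrophil markers (-3.60, 0.00555). DESeq2 gave -2.42 (adjusted p = 0.0206) and limma voom with quality weights -4.57 (9.55e-05). Slco1a1 is one of the male-biased genes of mouse liver. A list of other male-biased genes had a median diet effect of -0.83, with 1 of 8 past the threshold. By genotype that median was -1.53 in Rosa26KO and -0.15 in p53KO, against -2.19 and -2.67 for Slco1a1. Among female-biased genes Cyp2b13, Cyp2b9 and Cyp2a4 rose while Cyp3a41a fell. Control_p53KO 1, the control library lowest in Slco1a1, was also the lowest of all in the male-biased list, and whether these shifts bear on Slco1a1 was not tested.

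Slco1a4 and Slco1b2, which encode OATP1A4 and OATP1B2, did not pass in the fit of all 25 libraries. Slco1a4 had group means of 53.4 ± 18.1 CPM, 36.4 ± 12.4 CPM, 51.3 ± 27.6 CPM and 30.4 ± 12.2 CPM in Control_Rosa26KO, HFD_Rosa26KO, Control_p53KO and HFD_p53KO. Its average effect was -0.65 ± 0.24 (edgeR adjusted p = 0.0880). It passed without the 3 libraries high in neutrophil markers, both on the average (-0.76, edgeR adjusted p = 0.0132) and in p53KO (-1.10, 0.0351, against -0.75 and 0.217 with all libraries). On the average it also passed without Control_p53KO 3 (-0.75, edgeR adjusted p = 0.0201) or HFD_p53KO 5 (-0.74, 0.0473) and by limma voom (-0.72, 0.00598). Slco1b2, the most abundant of the Slco genes, stayed between 605 and 684 CPM by group mean.

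**Figure D3:**
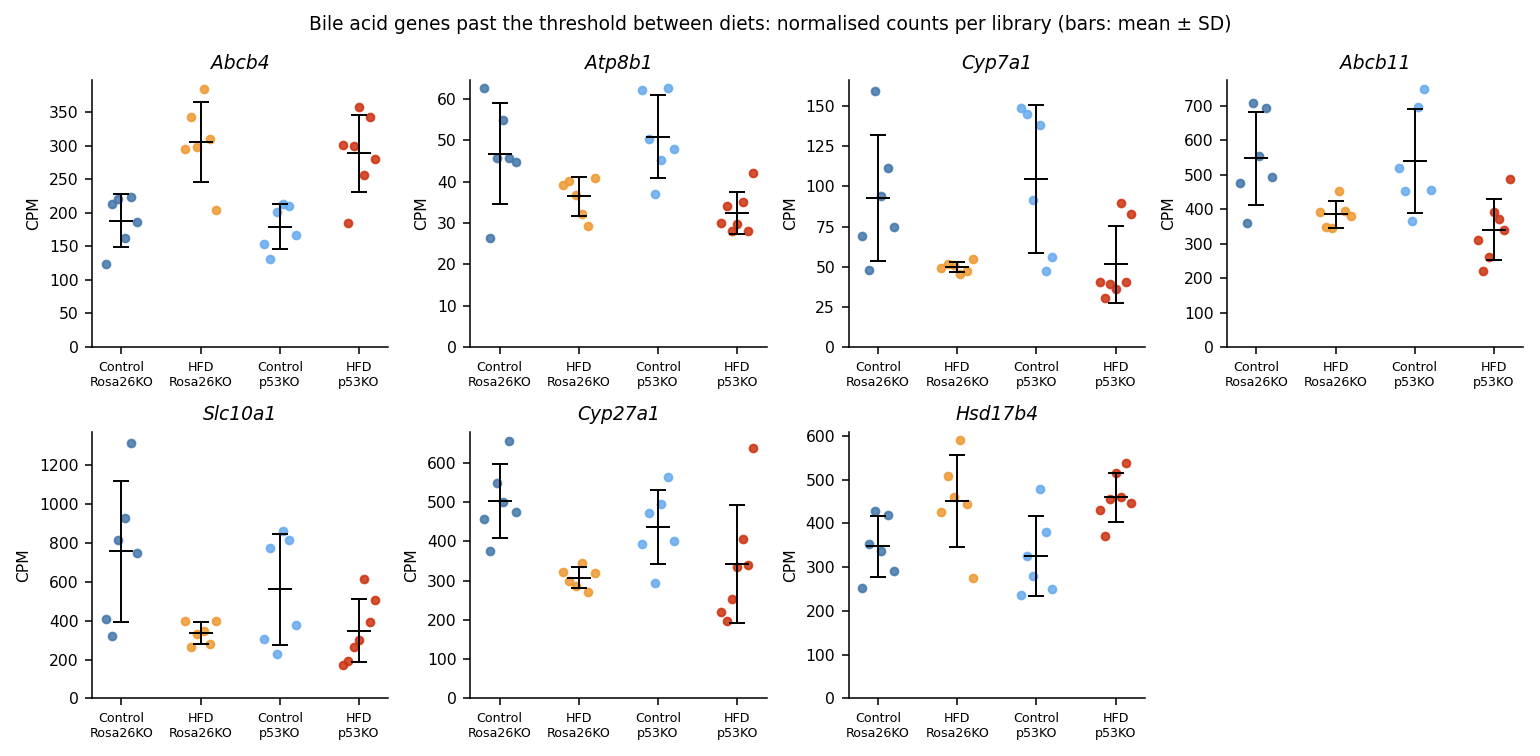
Normalised counts (CPM) in each of the 25 libraries for the 7 genes past the threshold between diets, 1 panel per gene and 1 point per library, with the group mean and SD as bars. Abcb4 is higher in both HFD groups, with means of 306 and 289 CPM against 188 and 179 on control diet, and the control libraries of Cyp7a1 and Slc10a1 are widely spread.

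Genes of the canalicular membrane moved in both directions. Abcb11 (chr2:69238282-69342616, minus strand) encodes BSEP, the pump that carries bile salts into bile, and is a known FXR target. FXR binds as a dimer with RXR to inverted repeats of AGGTCA set 1 base apart. Both strands of the 300 bases around each RefSeq start (250 before and 50 after, GRCm38.p6) were searched for AGGTCANTGACCT with up to 2 mismatches. Windows were given for 22 of the 31 genes, 26 windows in all. The repeat was found in 2 of the 26, those of Abcb11 and Slco1b2, while 1.14% of all 32851 such promoter windows held it. The 250 bases before the start of these 2 genes are shown because they carry that repeat, here in capitals, and because Abcb11 fell on HFD while Slco1b2 did not pass. Abcb11 is chr2:69342617-69342866 on the minus strand and Slco1b2 is chr6:141629268-141629517 on the plus strand, both from RefSeq.
Abcb11: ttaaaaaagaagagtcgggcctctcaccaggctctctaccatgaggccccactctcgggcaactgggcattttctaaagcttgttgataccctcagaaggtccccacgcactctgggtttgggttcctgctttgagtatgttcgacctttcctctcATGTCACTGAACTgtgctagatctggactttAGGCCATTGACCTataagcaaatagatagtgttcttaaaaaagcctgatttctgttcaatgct
Slco1b2: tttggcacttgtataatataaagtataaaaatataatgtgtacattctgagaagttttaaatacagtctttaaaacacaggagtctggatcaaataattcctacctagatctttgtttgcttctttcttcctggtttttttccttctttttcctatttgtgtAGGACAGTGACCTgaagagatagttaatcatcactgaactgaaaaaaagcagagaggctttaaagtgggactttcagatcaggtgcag
Counted from the 5′ end, the Abcb11 sequence held a repeat with 2 mismatches from base 157 and a repeat with 1 mismatch from base 188, and the Slco1b2 sequence held a repeat with 1 mismatch from base 163. These are letter matches and no binding was measured. The exact single copy AGGTCA, which forms part of 1 repeat in each sequence, was in 10 of the 26 windows and in 16.3% of all windows. A direct repeat, AGGTCANAGGTCA with up to 2 mismatches, was found in 3 of the 26 windows (of Acox2, Nr1h4 and Slco1a1) and in 3.86% of all windows.

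Abcb11 was measured at 359 to 708 CPM (median 523) in Control_Rosa26KO and 346 to 452 CPM (median 386) in HFD_Rosa26KO. In p53KO it was measured at 365 to 747 CPM (median 487) on control diet and 221 to 488 CPM (median 339) on HFD. HFD libraries sat in the lower part of the control range or below it, with overlap in both genotypes. The average effect was -0.58 ± 0.13 (edgeR adjusted p = 0.00729), so that it fell by 33.3%. Averaged over both genotypes, the differences within the runs of library numbers were -0.53, -0.66 and -0.58. They were -0.16, -0.66 and -0.59 in Rosa26KO and -0.89, -0.65 and -0.56 in p53KO. Exons of the unnamed genes Gm13613 and Gm13614 overlap Abcb11 on the other strand, and whether the counts used strand is not given in the sources used here.

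In the opposite direction, Abcb4 (chr5:8893717-8959231, plus strand), which encodes the MDR2 floppase that delivers phosphatidylcholine to bile, rose on HFD. Its values were 124 to 223 CPM (median 199.6) in Control_Rosa26KO and 205 to 385 CPM (median 304) in HFD_Rosa26KO. They were 132 to 214 CPM (median 184) in Control_p53KO and 185 to 358 CPM (median 300.3) in HFD_p53KO. Only the lowest HFD library of each genotype, HFD_Rosa26KO 6 and HFD_p53KO 2, came within the control range. The average effect was 0.69 ± 0.12, a rise of 61.8% with the smallest adjusted p of the 30 genes (edgeR adjusted p = 0.000831). Averaged over both genotypes, the differences within runs of library numbers were 0.85, 0.75 and 0.47. The call on the average of both genotypes was kept when any 1 library was left out.

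Atp8b1 encodes a flippase that returns phosphatidylserine to the inner leaflet of the canalicular membrane, and its gene fell. Control_Rosa26KO libraries held 26.5 to 62.7 CPM (median 45.8) and HFD_Rosa26KO libraries 29.4 to 40.9 CPM (median 38.0). In p53KO the control libraries held 36.9 to 62.6 CPM (median 49.2) and the HFD libraries 28.0 to 42.1 CPM (median 29.9). The overlap in p53KO came from a single HFD library, HFD_p53KO 7, above the lowest control library, and was wider in Rosa26KO. The average effect was -0.50 ± 0.11 (edgeR adjusted p = 0.00506), with -0.42, -0.52 and -0.52 within runs, averaged over both genotypes. In the first run it was -0.04 in Rosa26KO and -0.80 in p53KO. Tmem30a, which encodes the beta subunit that Atp8b1 needs to leave the endoplasmic reticulum and is described further on, fell as well.

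The other canalicular genes did not pass between diets by edgeR, while limma voom called Abcc2 on the average of both genotypes. Abcc2, which encodes MRP2, the pump for conjugated bilirubin and divalent bile acids, had group means of 279 ± 48.1 CPM, 327 ± 64.9 CPM, 289 ± 97.2 CPM and 369 ± 54.4 CPM in Control_Rosa26KO, HFD_Rosa26KO, Control_p53KO and HFD_p53KO. Abcg5 and Abcg8 encode the subunits of the cholesterol exporter of the canaliculus. Abcg5 had means of 68.6 to 78.2 CPM and Abcg8 of 81.2 to 103 CPM. In the canalicular group as a whole 1 of 6 genes rose, 2 fell and 3 did not pass.

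Export back to blood runs through Abcc3, Abcc4 and the Slc51a and Slc51b pair. Abcc3, which encodes MRP3, had group means of 306 ± 61.1 CPM, 349 ± 118 CPM, 278 ± 60.4 CPM and 439 ± 105 CPM in the order Control_Rosa26KO, HFD_Rosa26KO, Control_p53KO and HFD_p53KO. Abcc4, which encodes MRP4, was low at 6.66 ± 3.70 CPM, 10.2 ± 4.49 CPM, 6.30 ± 2.32 CPM and 9.50 ± 6.35 CPM, with the highest library, at 18.6 CPM, in HFD_Rosa26KO. Slc51b was under 1 CPM in most libraries and reached 3.24 CPM in Control_p53KO 1. Exons of Rasl12 overlap Slc51b on the other strand. None of the 3 tested genes passed in the fit of all 25 libraries. The average effect on Abcc3 was 0.43 ± 0.17 (edgeR adjusted p = 0.112), and it passed without the 3 libraries high in neutrophil markers (0.45, 0.0186), without HFD_Rosa26KO 6 (0.52, 0.0104) and by limma voom (0.51, 0.00675). In p53KO alone Abcc3 was at 0.66 ± 0.23 (edgeR adjusted p = 0.119) and passed without HFD_Rosa26KO 6 (0.66, 0.0361) and by limma voom (0.75, 0.0193). Abcc4 was called by limma voom on the average of both genotypes.

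Taken within 1 genotype, the diet effect reached the threshold for fewer genes. In Rosa26KO 1 of 30 genes passed (3.33%, against 1.51% of all tested genes): Abcb4 rose, by 0.70 ± 0.17 (edgeR adjusted p = 0.0388). The next by p were Cyp27a1 at -0.71 ± 0.22 (edgeR adjusted p = 0.0859) and Slc10a1 at -1.17 ± 0.36 (0.0963). In Rosa26KO 23 of 30 genes lay below 0 with a median of -0.26. Over all tested genes 6987 of 14133 did, with a median of 0.00325. In p53KO 2 of 30 passed (6.67%, against 2.87% of all tested genes): Abcb4 rose by 0.69 ± 0.17 (edgeR adjusted p = 0.0263) and Atp8b1 fell, at -0.65 ± 0.15 (edgeR adjusted p = 0.0228). Abcb11 came next at -0.66 ± 0.18 (edgeR adjusted p = 0.0508), and Cyp7a1 was at -1.02 ± 0.30 (0.0604). Here 15 genes lay below 0 and 15 above, with a median of 0.02. Over all tested genes 7645 of 14133 lay below 0, with a median of -0.0238.

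These calls within 1 genotype depended on single libraries. Abcb4 in Rosa26KO lost its call without any 1 of Control_Rosa26KO 1, 4, 5 or 6, HFD_Rosa26KO 1, 2, 3, 4 or 5, or Control_p53KO 6 (edgeR adjusted p 0.0518 to 0.0969). In p53KO it was lost without Control_p53KO 1, 2 or 6 or HFD_p53KO 4 or 6 (0.0535 to 0.0742), and Atp8b1 without Control_p53KO 5 or HFD_p53KO 4 or 6 (0.0511 to 0.062). Library numbers 1949 to 1965 alone gave 0 calls in each genotype. Other genes gained a call. In Rosa26KO Cyp27a1 passed without the 4 libraries high in acute phase genes (-0.74, edgeR adjusted p = 0.0269) and without HFD_p53KO 7 (-0.71, 0.0284), and both Slc10a1 (-1.32, 0.0446) and Atp8b1 without Control_Rosa26KO 2. In p53KO Abcb11 passed with the library run as a term (-0.70, edgeR adjusted p = 0.0214), without the 3 libraries high in neutrophil markers (-0.79, 0.0351), and without any 1 of Control_Rosa26KO 2, Control_p53KO 3 or HFD_p53KO 7 (0.0186 to 0.0349). Cyp7a1 in p53KO passed without any 1 of Control_Rosa26KO 2, Control_p53KO 5 or 6, or HFD_p53KO 5 or 7 (edgeR adjusted p 0.0271 to 0.0499), and Hsd17b4 without Control_p53KO 4.

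Whether the diet acted differently in the genotypes was tested as an interaction. None of the 30 genes passed, adjusted or unadjusted, by edgeR's quasi-likelihood test, and none by DESeq2 or limma voom with quality weights. Over all genes the share called was 0% by edgeR, 8.64% at an unadjusted p under 0.05, 0.0257% by DESeq2 and 0% by voom. The genes with the smallest p were Cyp39a1 at -0.83 ± 0.50, Hsd3b7 at 0.39 ± 0.25 and Nr0b2 at 0.77 ± 0.50 (log2 ± SE, diet effect in p53KO minus that in Rosa26KO, edgeR adjusted p = 0.630, 0.639 and 0.643). For Cyp7a1 the interaction was -0.13 ± 0.43, with a 95% interval of -0.97 to 0.71, and differences within that interval could not be told from 0.

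The comparison of p53KO with Rosa26KO, the question named by the design, gave no bile acid gene past the threshold on either diet or on their average. None of the 30 had even an unadjusted p under 0.05 in these 3 comparisons, and DESeq2 and limma voom called none. On control diet edgeR called 0% of all genes, with 9.96% at an unadjusted p under 0.05, 0.00513% by DESeq2 and 0% by voom. On HFD the shares were 0%, 3.6%, 0.00513% and 0% in that order, and on the average of both diets 0%, 4.05%, 0.0205% and 0.0142%.

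On control diet the smallest p belonged to Hsd3b7 at -0.23 ± 0.18 (edgeR adjusted p = 0.624), Slc10a1 at -0.43 ± 0.36 (0.652) and Cyp39a1 at 0.37 ± 0.36 (0.700), and 24 of 30 genes lay below 0 with a median of -0.09, against 0.01 over all genes. The Cyp39a1 value turned to -0.21 with library numbers 1949 to 1965 alone. On HFD, Cyp7b1 came first at 0.69 ± 0.36 (unadjusted p = 0.0624, edgeR adjusted p = 0.9998). Its values were 44.5 to 128 CPM (median 66.7) in HFD_Rosa26KO and 44.9 to 299 CPM (median 72.0) in HFD_p53KO, and HFD_p53KO 7 was far above the rest: without it the difference was 0.26. Abcc3 at 0.33 ± 0.23 and Acox2 at 0.18 ± 0.13 followed. On the average of both diets Cyp7b1, Abcc2 and Slc10a1 had the smallest p, at 0.33 ± 0.25, 0.11 ± 0.13 and -0.19 ± 0.25 (edgeR adjusted p 0.966, 0.966 and 0.967). For Cyp7a1 the 95% interval of the average genotype difference was -0.31 to 0.53 and for Abcb11 -0.36 to 0.16, both on the log2 scale.

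A list of 40 further genes of bile acid handling, nuclear receptor targets and partners of these proteins was read beside the 31, and 36 were tested. On the average of both genotypes 1 rose on HFD: S1pr2, a receptor gene whose product binds conjugated bile acids (0.44 ± 0.12, edgeR adjusted p = 0.0232). Another 2 fell: Cyp3a11, a bile acid and drug hydroxylase gene (-1.26 ± 0.32, 0.0135), and Tmem30a (-0.27 ± 0.08, 0.0276). These 3 of 36 are 8.33%, no more than the 9.71% of all tested genes. Tmem30a also fell in p53KO (-0.39 ± 0.11, edgeR adjusted p = 0.0476), where Atp8b1 fell too, although without any 1 of 15 of the 25 libraries this call was lost (edgeR adjusted p up to 0.105, without Control_p53KO 5), and none of the 36 passed in Rosa26KO, between genotypes or for the interaction. That call in p53KO was also lost without the libraries high in neutrophil markers (-0.39, edgeR adjusted p = 0.0687) or in acute phase genes (-0.39, 0.110). Over both genotypes the Tmem30a call was lost without Control_Rosa26KO 4, without HFD_Rosa26KO 5 or without the 4 libraries high in acute phase genes (-0.27, edgeR adjusted p = 0.0563), and the Cyp3a11 call with library numbers 1949 to 1965 alone. The median diet effect of this list was -0.06.

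The first run of library numbers, 1941 to 1948, was compared with the rest, each run holding all 4 groups. Relative to the other runs 25 of 30 genes lay below 0, with a median of -0.28 against -0.00292 over all genes. By edgeR's adjusted p 0 of 30 passed (0.538% of all genes), and 12 of 30 (40%) had an unadjusted p under 0.05, where 20.6% of all genes did. DESeq2, run without the filter on low counts, called 2 of 31 (6.45%, against 4.62% of 13471 genes with an adjusted p). Limma voom called 4 of 30 (13.3%, against 4.91% of all genes). Smallest in p were Slco1b2 at -0.49 ± 0.16, Baat at -0.36 ± 0.12 and Nr0b2 at -0.71 ± 0.24 (edgeR adjusted p = 0.107, 0.117 and 0.122). Nr0b2 spanned 18.7 to 60.4 CPM (median 25.5) in the first run and 18.9 to 81.6 (median 43.9) in the others, ranges that overlapped. In the same comparison 2 of 13 genes of a circadian clock list were called higher and 4 lower, and 2 of 10 acute phase genes higher. The part of either in the bile acid genes was not tested.

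**Figure D4:**
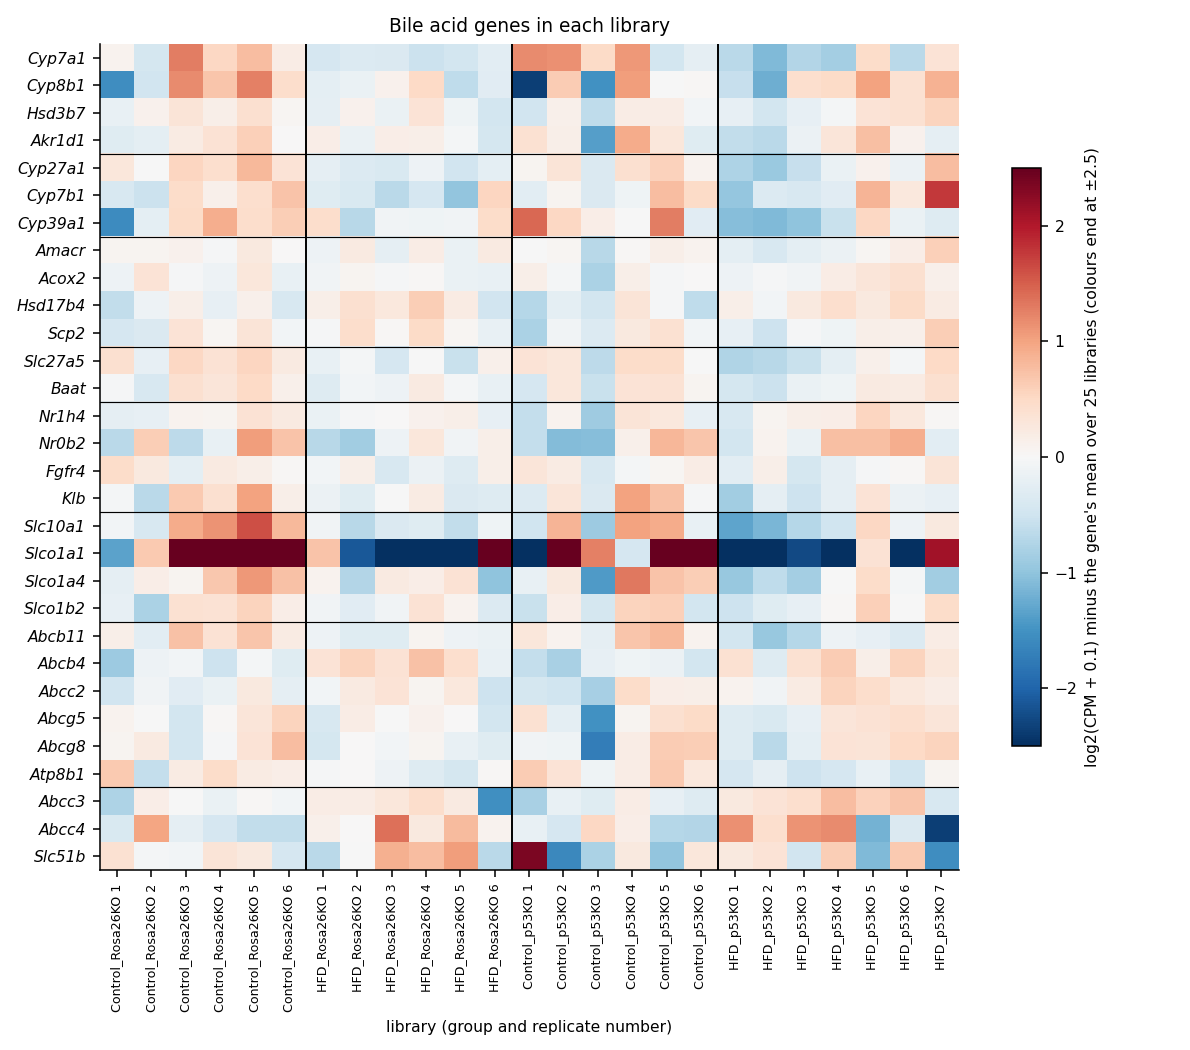
Level of each tested gene (rows, grouped by role) in each library (columns, grouped by diet and genotype), as log2(CPM + 0.1) minus the mean of the gene over 25 libraries. Slco1a1 is dark blue in most HFD libraries and red in HFD_Rosa26KO 6 and HFD_p53KO 7, and Control_p53KO 3 is blue in most rows.

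Pairs of genes were compared across the 25 libraries after each library's log2 CPM was centred on its group, 7 pairs in all, with permutation within groups and Benjamini-Hochberg adjustment over the 7. Abcg5 and Abcg8 lie on opposite strands of chr17. RefSeq gives Abcg5 a start at 84683011 on the minus strand and Abcg8 a start at 84683121 on the plus strand, 110 bases away. It also gives Abcg8 a start at 84676302, which lies inside Abcg5 (84658234 to 84683011) and is where the GENCODE gene begins, so that the annotated genes overlap. The stretch between the Abcg5 start and the nearer Abcg8 start is printed here. It is shown because this pair had the highest correlation of the 7, as the plus strand of chr17:84683012-84683120 (RefSeq, GRCm38.p6).
Abcg5 and Abcg8: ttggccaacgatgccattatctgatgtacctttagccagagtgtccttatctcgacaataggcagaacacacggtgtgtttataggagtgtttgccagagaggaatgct
The levels of Abcg5 and Abcg8 gave a Pearson r of 0.95 and a Spearman rho of 0.91. The permutation p was 1e-05 for r and 1e-05 for rho, the smallest the resamples can give (adjusted 3.5e-05 and 7e-05). Leaving out the 2 libraries farthest from the median, Control_Rosa26KO 3 and Control_p53KO 3, gave r = 0.86. Annotated exons of the pair share 82 bases, 3.02% of the exon length of Abcg5 and 2.19% of that of Abcg8, where reads of one could be counted for the other if the counting ignored strand.

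Within the 3 runs of library numbers, values were centred on the group means of that run. Abcg5 and Abcg8 then gave r = 0.54 (n = 8), 0.997 (n = 8) and 0.57 (n = 9), given with no test. The first 2 runs held 2 libraries per group, which mirror each other after centring. There r rests on 1 difference per group, so that 1 library far from the rest can set it. In the third run HFD_p53KO held 3 libraries and each other group 2, so the same limit holds there outside HFD_p53KO. Cyp7b1 and Slco1a1, both known as male-biased genes of mouse liver, formed the other pair past the threshold, with r = 0.79 and rho = 0.78 (permutation p = 1e-05 and 2e-05, adjusted 3.5e-05 and 7e-05). Without HFD_p53KO 1 and HFD_p53KO 7, the libraries farthest from the median, r was 0.81. Within runs r for this pair was 0.31 and -0.24 in the first and second, each from 1 difference per group, and 0.97 in the last. That last run held HFD_Rosa26KO 6 (Cyp7b1 128 CPM, Slco1a1 134 CPM) and HFD_p53KO 7 (299 and 81.5 CPM). Each was the highest of its group in both genes, and r without them was not computed.

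**Figure D5:**
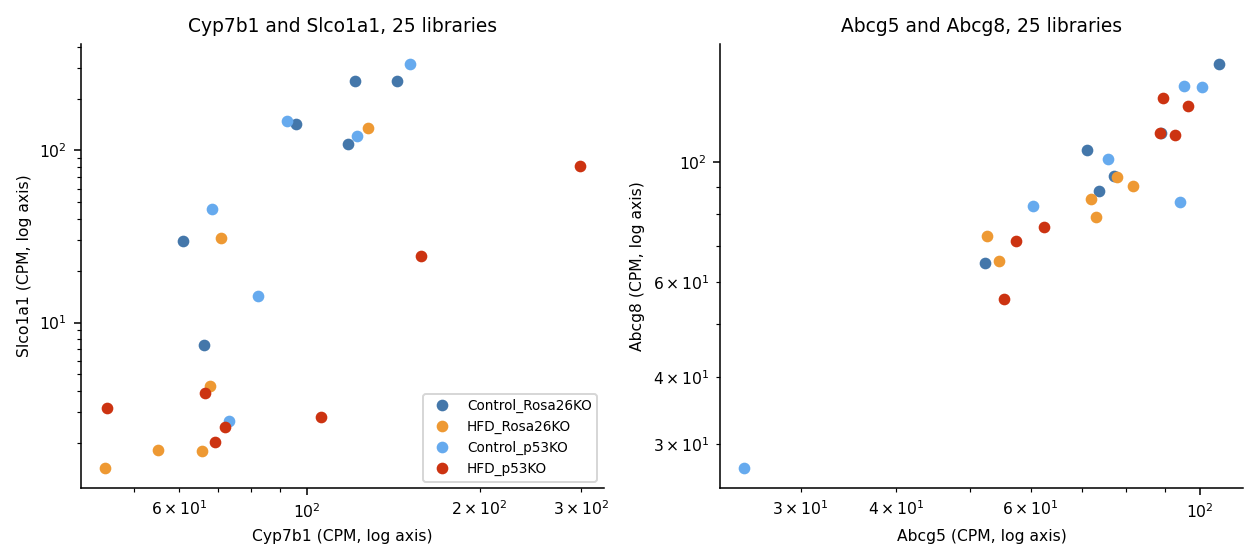
Level of Slco1a1 against Cyp7b1 (left) and of Abcg8 against Abcg5 (right) in the 25 libraries (CPM, log axes), 1 point per library coloured by group. Abcg5 and Abcg8 lie along 1 line in all groups (r = 0.95 after centring on groups), with Control_p53KO 3 far below the rest, and at a given level of Cyp7b1 most HFD libraries lie lower in Slco1a1.

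The FXR target Nr0b2 was set against 4 genes and gave no relation past the threshold. SHP is known to repress Cyp7a1 and Cyp8b1, and across the 25 libraries r was -0.37 for Cyp7a1 (rho -0.35, permutation p = 0.129, adjusted 0.241) and 0.34 for Cyp8b1 (rho 0.26, permutation p = 0.172, adjusted 0.241). The Cyp7a1 relation was -0.89, 0.10 and -0.34 within the 3 runs, where the first and second values rest on 1 difference per group. The third does so outside HFD_p53KO. For the other FXR targets, Abcb11 and Slc51b, r was 0.28 and 0.13 (permutation, adjusted 0.276 and 0.621). The Slc51b value rests on low counts, at a mean of 0.693 CPM over the 25 libraries. Cyp7a1 and Cyp8b1 gave r = 0.35 and rho = 0.43 (permutation, adjusted 0.241 and 0.150). Relations past the threshold were therefore 2 of 7.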

How the data were processed

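Poly(A) RNA-seq of 25 mouse liver libraries was analysed from 1 table of raw counts per gene, which the authors deposited, with no normalization. Per the submitters' processing notes, STAR and HOMER were used with GRCm38 (mm10). The annotation, the treatment of reads that map to several places and whether counting used strand are each not given in the sources used here. Per the labels' protocols, reads were paired, of 75 bases. Total counts were 16324283 to 21501281 per library, and all 25 columns were used.

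Groups were taken from the sample titles. Genes were kept by filterByExpr (minimum count 10, minimum total 15), which left 14133 of 24537, and libraries were scaled by TMM. One edgeR 4.0.16 quasi-likelihood model (robust, R 4.3.3) with a mean for each of the 4 groups gave the diet effect in each genotype, its average, the genotype effect on each diet, its average, and the interaction. A second fit added the first run of library numbers. P-values were two-sided and adjusted by Benjamini-Hochberg over all tested genes, with a threshold of 0.05. A log2 fold change is printed with its standard error, taken as its size over the square root of the F statistic, and intervals of 95% span 1.96 standard errors. CPM were computed from TMM-scaled library sizes, and values per kb divide CPM by the exon length in GENCODE M21. Relations used log2 CPM (prior count 2) centred within groups, with 100000 permutations within groups. Promoters came from RefSeq (GRCm38.p6). The fit was tested on simulated counts.

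The 31 genes and the gene lists were chosen with earlier results of these data known. Genes named with test values were those past the threshold in a comparison or, where fewer than 3 passed, the 3 of smallest p, with Cyp7a1, Cyp8b1, Cyp7b1, Nr0b2, Nr1h4, Abcb11 and Slc10a1 free to be described anywhere, and Slc27a5, Slco1a1, Slco1a4, Cyp39a1, Abcc3, Klb and Fgfr4 were added after their values were seen because an alternative changed their call. Limma voom, which called 35.4% of all genes on the average of both genotypes, also called Cyp7b1, Baat, Abcc2 and Abcc4 there. Genes named from the list of other pathway genes were those past the threshold. Alternatives were RLE scaling, no filter, no robust option, DESeq2 1.42.0, limma 3.58.1 voom with quality weights, a replicate block, the library run as a term, only the groups compared, leaving out each library, and 3 settings added after the data were seen: library numbers 1949 to 1965 alone, and leaving out 3 libraries high in neutrophil markers or 4 high in acute phase genes.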

Additional observations from a re-analysis of the deposited data

Results flagged for a closer look

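In each group of 6 or 7 libraries the highest and lowest value of each of the 31 genes was compared with its neighbours by Dixon's ratio. Of 122 groups tested 10 held a library that stood apart, and chance gives about 1 in 20. HFD_Rosa26KO 6 was apart in 3 genes: it was high in Cyp7b1 (128 CPM) and Slco1a1 (134 CPM) and low in Abcc3 (114 CPM). Control_p53KO 3 was low in the side-chain enzyme genes Amacr (63.2 CPM) and Acox2 (145 CPM). Both libraries were also among the 3 high in neutrophil markers, at 381 CPM summed in HFD_Rosa26KO 6 and 76.7 CPM in Control_p53KO 3. Control_p53KO 3 had the highest summed Kupffer cell markers of all libraries (2928 CPM, group median 579) and the highest lymphocyte markers (59.3 CPM). Its hepatocyte markers, at 73373 CPM, were the lowest of the control diet libraries. The part of any of these cells was not tested.

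HFD_p53KO 7 was high in Slco1a1 (81.5 CPM), Control_Rosa26KO 2 was high in the efflux pump gene Abcc4 (14.1 CPM) and Control_p53KO 1 was high in Slc51b (3.24 CPM). For Slc51a, the libraries that stood apart, Control_Rosa26KO 5 (0.061 CPM) and HFD_p53KO 1 (0.0424 CPM), held 1 read each where the rest of their groups held none.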

How the results depend on the processing

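The count of bile acid genes past the threshold between diets moved with the method. In Rosa26KO it was 1 by edgeR, 3 by DESeq2, 10 by limma voom, 4 with only the groups compared, 0 with library numbers 1949 to 1965 alone, 2 without the 4 libraries high in acute phase genes, and 0 to 3 when 1 library was left out. In p53KO it was 2 by edgeR, 5 by DESeq2, 13 by voom, 4 with the library run as a term, 1 with only the groups compared, 0 with library numbers 1949 to 1965 alone, 4 without the 3 libraries high in neutrophil markers, and 0 to 4 when 1 library was left out. On the average of both genotypes it was 7 by edgeR, 18 by voom, 4 with library numbers 1949 to 1965 alone, 12 without the neutrophil-high libraries, and 6 to 10 when 1 library was left out. The other settings for that average stayed within 1.5 times, except the replicate block. The share of all genes called moved too: in Rosa26KO it was 1.51% by edgeR, 3.97% by DESeq2, 21.5% by voom and 4.77% with only the groups compared. In p53KO it was 2.87% by edgeR, 6.07% by DESeq2, 15.5% by voom, 4.48% with the run as a term and 0.878% with only the groups compared. On the average it was 9.71% by edgeR, 11.6% by DESeq2 and 35.4% by voom. For the first library run the count of bile acid genes was 0 by edgeR, 2 by DESeq2 and 4 by voom. The shares of all genes there were 0.538%, 4.62% and 4.91%. Genotype and interaction counts were 0 under every setting run. The cause of these shifts was not tested.

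Same-numbered libraries were not paired by the labels: 17 of 36 pairs of deviations correlated above 0.1 (range -0.40 to 0.60), and 9 of 24 libraries correlated best with their own number. With the replicate number as a block, without HFD_p53KO 7, the block fit called 2 genes in Rosa26KO, 7 in p53KO and 12 on the average. It called 3.9%, 5.57% and 16.2% of all genes in these comparisons. On the average the 7 genes past the threshold without the block were among its 12, with Slc27a5, Slco1a1 (-3.37, edgeR adjusted p = 0.0203), Fgfr4, Abcc3 and Klb added.

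Several values that were not past the threshold changed sign. With library numbers 1949 to 1965 alone these were the genotype difference on control diet of Cyp39a1 (-0.21), the average genotype difference of Cyp7a1 (-0.0853) and the interaction of Cyp7a1 (0.64). Without the acute-phase-high libraries the same 3 values were -0.0506, -0.0268 and 0.0146. Without the neutrophil-high libraries the diet effect of Nr1h4 was -0.0276, the genotype difference of Slc10a1 0.00174 and the interaction of Cyp7a1 0.0135. By voom the genotype difference of Cyp7a1 was -0.19, and with the block the diet effect of Nr0b2 was 0.0345. With 1 library left out, the diet effect of Cyp8b1 ran from -0.26 to 0.0144, that of Nr0b2 from -0.16 to 0.0342, and the interaction of Cyp7a1 from -0.36 to 0.00648.

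Relations that changed sign were Nr0b2 with Slc51b without the 2 farthest libraries (-0.126), Nr0b2 with Cyp8b1 (-0.0933) and Abcb11 (-0.650) and Cyp7a1 with Cyp8b1 (-0.180) in the first run, Nr0b2 with Cyp7a1 (0.101) and Cyp7b1 with Slco1a1 (-0.242) in the second, and Nr0b2 with Cyp8b1 (-0.00515) and Abcb11 (-0.327) in the third. The relations within the first and second runs rest on 1 difference per group, and those in the third do so outside HFD_p53KO. At this depth Slc51a, with 1 read in each of 2 libraries, could not be tested. Of the 7 diet calls, those of Abcb4, Atp8b1, Abcb11 and Slc10a1 on the average of both genotypes were kept under every setting run.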
